A study of Mus musculus with 9 samples.

Results

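The genes described here encode 8 proteins of a repression machinery: the zinc finger repressors Snai1 and Gfi1, the histone demethylase Lsd1 (gene Kdm1a), its CoREST scaffolds Rcor1 and Rcor3, the deacetylases Hdac1 and Hdac2, and the Polycomb methyltransferase Ezh2. They were chosen by name. In a table of 10271 promoter windows, each of the 8 genes had a single window, so all 8 windows of the group are reported, and all 8 lay at the annotated RefSeq 5' end of the gene. Windows were matched to genes through RefSeq 5' ends up to 1000 bp from the gene start that each window was built around.

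Snai1 and Gfi1 belong to separate families but begin with the same short SNAG peptide, which docks in the catalytic pocket of Lsd1 and so brings the demethylase to DNA. Lsd1 removes methyl groups from lysine 4 of histone H3 at promoters and enhancers. It works in a complex with a CoREST scaffold and a deacetylase, Hdac1 or Hdac2. Ezh2 acts separately, as the enzyme of Polycomb repressive complex 2, which methylates lysine 27 of histone H3, and Snai1 is known to recruit that complex as well. In blood, Gfi1 and its relative Gfi1b guide progenitors towards the granulocyte and the erythroid and megakaryocyte fates through Lsd1. Snai1 is best known from epithelial-mesenchymal transition, where it silences epithelial genes through E-boxes with the letters CAGGTG. Human SNAI1 is known to bind its own promoter, and Gfi1 is known to repress its own gene.

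Open chromatin was mapped by ATAC-seq, an assay that uses the Tn5 transposase to insert sequencing adapters into accessible DNA. The libraries compared came from HPC7 cells transduced with the MIG retroviral vector for FLAG-tagged wildtype Snai1 (3 libraries, Snai1 below) and from HPC7 cells transduced with the empty MIG vector (3 libraries, EV below). HPC7 is a mouse hematopoietic progenitor line grown in stem cell factor, made from embryonic stem cells by expression of the transcription factor Lhx2, which all libraries therefore share. A further group with a mutant Snai1 was not analysed here. The table holds 1 value per group and window and no value per library, so no SD can be given, and the depth of the libraries is unknown. Nothing in the labels ties the libraries of 1 group to separate cultures, so the spread behind the authors' p-values may be technical only.

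Among markers of hematopoietic progenitors, 15 of 16 had a window. Of these, 5 were called higher and 2 lower (33.3% and 13.3%), with a median change of 0.04 in the authors' deposited table. The shares over all genes with a window were 19.6% higher and 10.3% lower, with a median change of 0.08. Tal1 (change 0.41) and Gata2, both at windows inside the gene, were higher, as were Meis1, Myb and Lyl1. Runx1 (-0.61) and Cd34 (-0.39) were lower. Against its 20 nearest windows 1 of the 15, Tal1, was called higher and 0 lower, where 5.35% and 8.39% of all windows were. The window of Kit, the receptor for stem cell factor, was not called (-0.08). Of markers of other cells, 2 of 10 fibroblast genes, 0 of 9 epithelial genes and 0 of 8 lymphoid genes had one. The 2 fibroblast markers were Fap, at a window inside the gene, with log2 concentrations of 9.53 in Snai1 and 9.15 in EV (called higher, FDR 0.00367), and Pdgfrb (10.21 in Snai1 and 10.14 in EV, not called), and their part in the results was not tested.

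Of the 8 genes, both repressors that carry a SNAG peptide had an E-box in the promoter printed below. Kdm1a, whose accessibility differed little, had none. Rcor1 and Rcor3, both called lower (changes -0.42 and -0.22), and Ezh2, called higher (0.21), had none either. A link between the letters and the change was not tested. The sequences are the RefSeq promoters of mm10 (GRCm38.p6), 5' to 3' on the strand of the gene, from 250 bases before the annotated start to 50 bases from it, and the capitals mark the letters CAGGTG or, read from the other strand, CACCTG. Snai1 lies at chr2:167537945-167538244 on the plus strand, Gfi1 at chr5:107725756-107726055 on the minus strand and Kdm1a at chr4:136602674-136602973 on the minus strand.
Snai1: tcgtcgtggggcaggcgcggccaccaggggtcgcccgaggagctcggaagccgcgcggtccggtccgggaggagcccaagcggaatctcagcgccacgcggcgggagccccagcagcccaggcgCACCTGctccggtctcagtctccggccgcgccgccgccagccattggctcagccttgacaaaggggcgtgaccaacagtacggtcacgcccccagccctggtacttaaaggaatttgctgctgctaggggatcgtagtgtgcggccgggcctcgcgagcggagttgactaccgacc
Gfi1: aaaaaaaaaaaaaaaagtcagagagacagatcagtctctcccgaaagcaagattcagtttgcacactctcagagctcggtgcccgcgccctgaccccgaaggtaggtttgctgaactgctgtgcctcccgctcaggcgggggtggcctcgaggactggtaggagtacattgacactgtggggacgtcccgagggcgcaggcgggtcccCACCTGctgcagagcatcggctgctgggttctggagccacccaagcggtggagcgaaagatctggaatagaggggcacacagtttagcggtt
Kdm1a: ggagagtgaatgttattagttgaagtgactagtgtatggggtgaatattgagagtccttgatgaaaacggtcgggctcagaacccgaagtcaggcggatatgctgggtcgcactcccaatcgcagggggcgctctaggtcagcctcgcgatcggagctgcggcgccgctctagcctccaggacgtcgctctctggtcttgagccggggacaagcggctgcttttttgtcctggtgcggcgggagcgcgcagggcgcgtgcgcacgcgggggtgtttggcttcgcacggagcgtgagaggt

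The E-box of Snai1 began 126 bases before the annotated start, and that of Gfi1 began 42 bases before it. Promoters of 7 of the 8 genes, all but Hdac1, were matched in the RefSeq table, with a second promoter for Gfi1. Snai1 and Gfi1 were the 2 genes of these 7 with a match to CAGGTG on either strand, while Ezh2, Hdac2, Kdm1a, Rcor1, Rcor3 and the second Gfi1 promoter had none. The same letters occurred in 20.2% of all 32851 RefSeq promoters of this length, so a match in itself is common. The core of the Gfi1 consensus, taken as AAATCAC on either strand, was in 0 of the 7 genes' promoters and in 3.2% of all promoters. These matches describe letters in these windows and show nothing about binding. The G and C content of the group's promoters lay between 58.0% for Gfi1 and 81.7% for Rcor3, above the median of 52.7% over all promoters. Gfi1 and Kdm1a (61.3%) were within the interquartile range of all promoters, 45.7% to 61.7%. That background includes promoters without a window here. Gfi1 had the fewest CpG steps of the printed promoters, 16, against 34 in Snai1 and 29 in Kdm1a.

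The comparison of Snai1 with EV asked how far promoter accessibility differed once the progenitors carried Snai1. Levels are the authors' log2 concentrations (normalized reads per window, as DiffBind reports them), and each change is the Snai1 value minus the EV value, so that a change of 1 is a doubling. A window was called where the authors' FDR was under 0.05, and the standard error given beside a change was worked back from the authors' p-value (implied SE). Of the 8 windows, 5 were called in the authors' deposited table, 1 higher and 4 lower in Snai1. Over all windows 29.9% were called, 19.6% higher and 10.3% lower, and the median change was 0.08. At the stricter FDR of 0.01, where 19.0% of all windows were called, Snai1, Gfi1 and Rcor1 remained. Since the genes were chosen by name with earlier results of these data known, the share called is a description. The changes divided the group. Those of the repressors were large and stood apart from the surrounding promoters. These were taken by distance, not matched for accessibility, and most had higher log2 concentrations than the repressors. Those of the cofactors were small or were shared with the surrounding promoters. Snai1 and Gfi1 also had the lowest log2 concentrations over both groups of the 8 windows (9.28 and 8.91). Protein class and low accessibility therefore cannot be told apart here. Outside the 8, the repressor gene Gfi1b was not called (0.10), and the Polycomb gene Phf19 was called lower (-0.73).

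**Figure D1:**
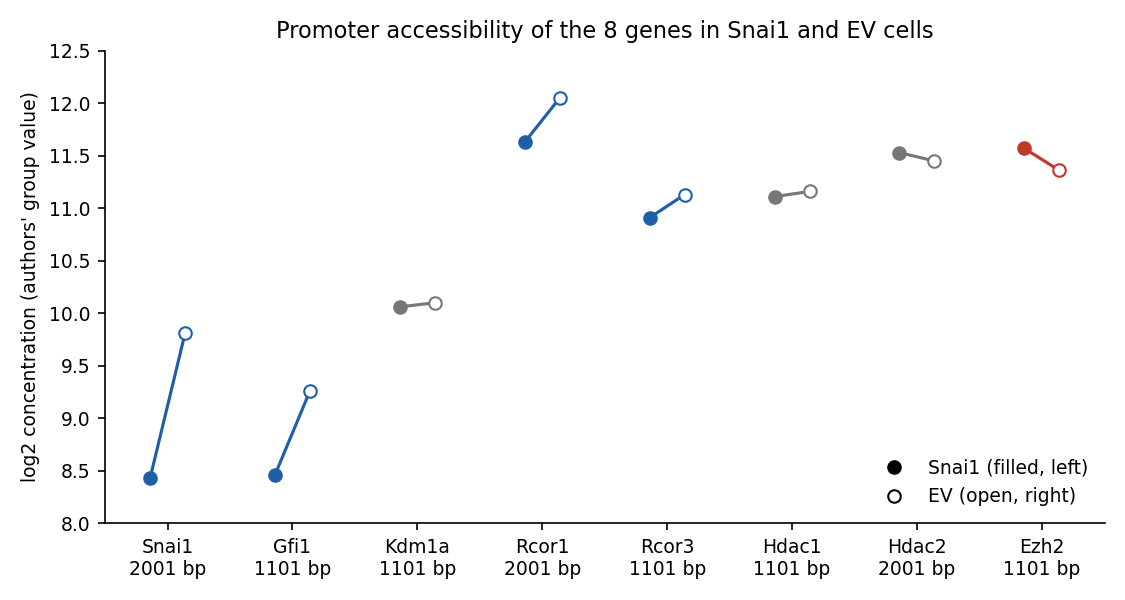
Log2 concentration (the authors' group value, vertical axis) at the window of each of the 8 genes in Snai1 (filled, left point) and EV (open, right point), with blue for windows called lower, red for those called higher and grey for those not called; window widths are given under the names. The lines of Snai1 and Gfi1, at 8.43 and 8.46 in Snai1 cells, are the steepest.

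The promoter of the endogenous Snai1 gene was less open in the cells that carried the Snai1 vector. Its window (mm10, chr2:167537227-167539227), which starts 1000 bp before a start site 32 bp inside the annotated gene and ends 1000 bp after it, had a log2 concentration of 8.43 in Snai1 and 9.81 in EV in the authors' deposited table. The change was -1.38 (implied SE 0.13, FDR 4.17e-26), which is 2.60-fold lower in Snai1, or 38.4% of the EV level. In EV the window already ranked low, at the 15.6th percentile of the windows of its width. Among all windows 87 others were changed as far down or further. Among the 328 windows of the same width and accessibility decile, 7 had a lower change, 21.6% were called lower and the median change was 0.00. Reads from the vector, which carries a Snai1 coding sequence, and reads from the endogenous gene cannot be told apart in the part of the window that lies inside the gene.

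Set against its surroundings the Snai1 window was the lowest. The 20 nearest windows lay between 0.74 Mb before and 0.69 Mb after it and had a median change of 0.06, and all 20 had a higher change than Snai1. They ran from -0.42 at Arfgef2 to 1.89 at Cebpb. Arfgef2, which encodes a factor that activates Arf GTPases of the secretory pathway, was the sole neighbour called lower, and 3 were called higher. Cebpb, a transcription factor of myeloid differentiation, lies 150.7 kb from the Snai1 start and had log2 concentrations of 8.29 in Snai1 and 6.40 in EV (FDR 9.82e-21 in the authors' deposited table). The lowest and the highest values of this part of chromosome 2 therefore lay within 0.2 Mb of each other. After subtraction of the neighbours' median, the change at Snai1 was -1.44, with a Benjamini-Hochberg FDR over all windows of 3.53e-28 when tested again against the implied SE. By this test 13.7% of all windows were called, 5.35% higher and 8.39% lower, and of the 8 genes Snai1 and Gfi1 were called. The same 2 were called against the 10 nearest windows, the 40 nearest and the 20 nearest of the same width, where the shares of all windows called were 15.0%, 13.7% and 14.2%.

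Gfi1, the SNAG repressor of granulocyte development and of the stem cell pool, was also lower. Its window (chr5:107725705-107726805, at the annotated start, 100 bp of it inside the gene) had a log2 concentration of 8.46 in Snai1 and 9.26 in EV in the authors' deposited table. The change was -0.80 (implied SE 0.14, FDR 3.16e-07), which is 1.74-fold lower in Snai1, or 57.4% of the EV level. Like the Snai1 window it ranked at the 15.6th percentile of its width in EV. Of the 699 windows of the same width and accessibility decile, 16 had a lower change, and 10.0% were called lower.

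The median change of the 20 nearest windows was 0.04, and 19 of the 20 had a higher change than Gfi1. Of these neighbours 4 were called higher, with changes between 0.20 and 0.24, and 1 was called lower. The lower one was Tgfbr3, the gene of a coreceptor for transforming growth factor beta, 436.2 kb away, with log2 concentrations of 7.34 in Snai1 and 8.29 in EV (change -0.95, FDR 3.72e-09 in the authors' deposited table). Evi5, 149.3 kb from Gfi1 on its other side, had values of 5.62 in Snai1 and 6.14 in EV and was not called (FDR 0.18). Mtf2, an accessory subunit of Polycomb repressive complex 2, is also a neighbour, with values of 11.00 in Snai1 and 11.11 in EV (FDR 0.23). After subtraction of the neighbours' median, the change at Gfi1 was -0.84 (FDR 1.13e-07 when tested again in the same way).

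**Figure D2:**
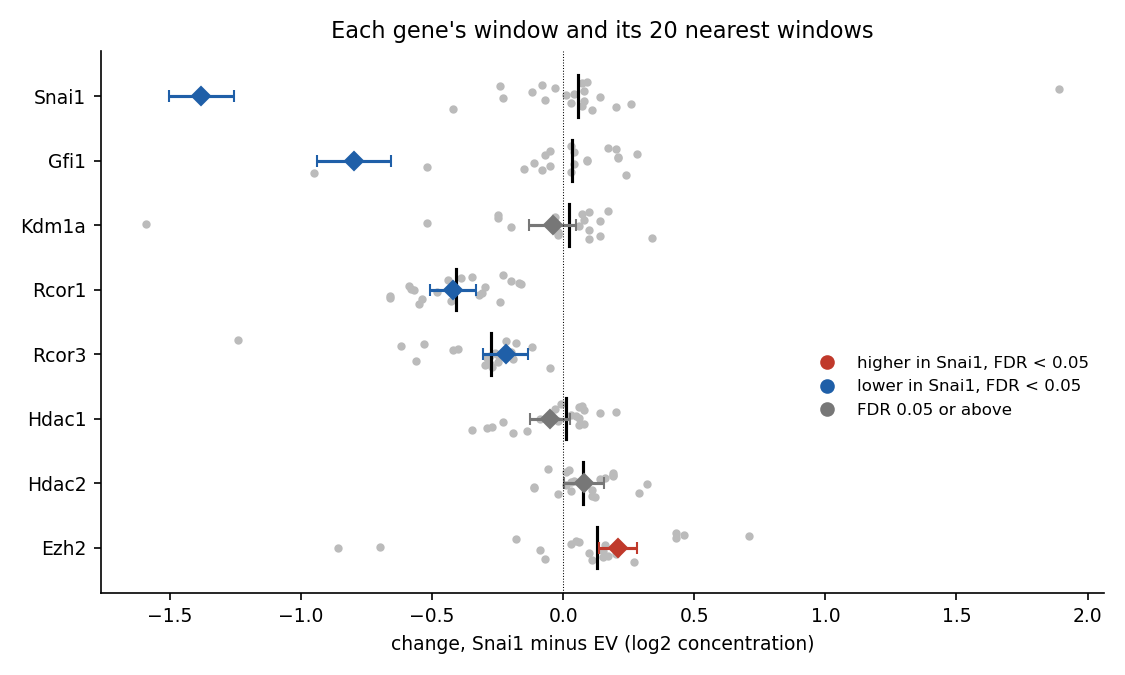
Change between Snai1 and EV (log2 concentration, horizontal axis) at each of the 8 genes (diamonds, with bars of 1 implied SE) and at its 20 nearest windows (grey points, spread vertically for legibility; black bar, their median). Snai1 lies below all 20 neighbours and Gfi1 below 19 of 20, whereas Rcor1 and Rcor3 lie among theirs.

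The CoREST scaffolds were lower together with the promoters around them. Rcor1, which bridges Lsd1 to the deacetylases, had a log2 concentration of 11.63 in Snai1 and 12.05 in EV in the authors' deposited table (chr12:111038798-111040798). The change was -0.42 (implied SE 0.09, FDR 3.28e-05), or 74.7% of the EV level, at a window of the 90.7th percentile of its width in EV. All 20 nearest windows had a negative change as well, from -0.66 at Wdr20 and Zfp839 to -0.16, and 17 of them were called lower. Their median of -0.41 left a change of -0.01 at Rcor1 (FDR 0.96 when tested again). Of these 20 windows, 10 lay below Rcor1 and 10 above it.

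Rcor3, a paralogue of Rcor1, had a log2 concentration of 10.91 in Snai1 and 11.13 in EV in the authors' deposited table (chr1:192137940-192139040). The change was -0.22 (implied SE 0.09, FDR 0.0392), or 85.9% of the EV level. Its 20 nearest windows were again all negative, 16 of them called lower, from -1.24 at the laminin gene Lamb3 to -0.05 at Vash2. Their median of -0.28 lay below Rcor3 and turned its change round, to 0.06 (FDR 0.76 when tested again). Rcor1 and Rcor3 lie on different chromosomes, so 2 separate neighbourhoods were lower, and neither gene stood apart from its own. Rcor2, another gene of the family, had a window 2370 bp inside the gene, with values of 10.43 in Snai1 and 10.36 in EV (FDR 0.49).

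**Figure D3:**
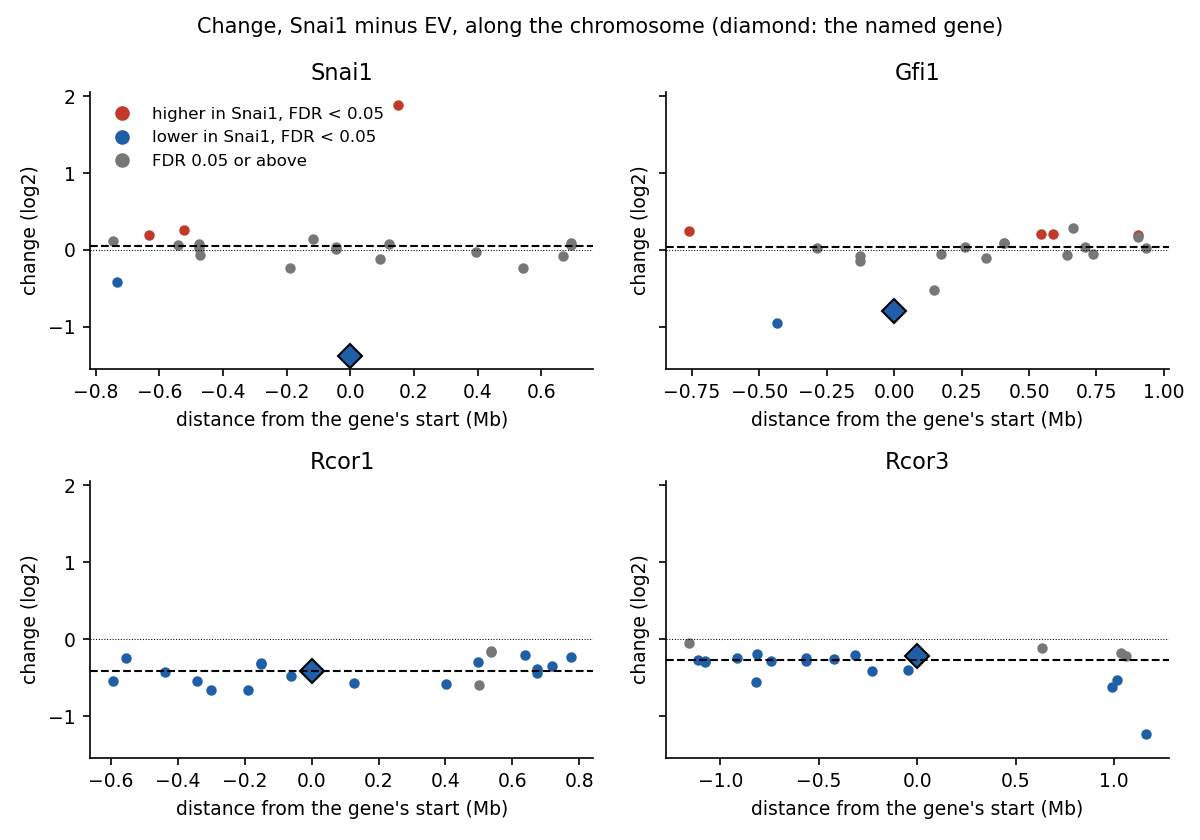
Change between Snai1 and EV (log2 concentration, vertical axis) at the 20 nearest windows against distance from the start of Snai1, Gfi1, Rcor1 and Rcor3 (Mb), with the named gene as a diamond, the neighbours' median as a dashed line and colours by call. Around Snai1 and Gfi1 the medians were 0.06 and 0.04, and around Rcor1 and Rcor3 they were -0.41 and -0.28.

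Kdm1a, the gene of Lsd1, did not pass. Its window (chr4:136602623-136603723) had a log2 concentration of 10.06 in Snai1 and 10.10 in EV in the authors' deposited table (change -0.04, FDR 0.81). The implied SE of 0.09 was taken here from windows of like accessibility, because the change is so small. With it the 95% interval ran from -0.21 to 0.13, so a difference within that range was not excluded. Among its neighbours 1 was called higher and 1 lower. The lower one was Id3, an inhibitor of basic helix-loop-helix factors, 458.9 kb away (change -1.59, FDR 5.25e-15).

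The deacetylase genes did not pass either. Hdac1 (chr4:129542546-129543646) had a log2 concentration of 11.11 in Snai1 and 11.16 in EV in the authors' deposited table (change -0.05, FDR 0.68, 95% interval -0.20 to 0.10). Hdac2 (chr10:36973544-36975544) had 11.53 in Snai1 and 11.45 in EV (change 0.08, FDR 0.54, 95% interval -0.07 to 0.23). Against all windows Hdac2 lay at the median change of 0.08, and Hdac1 lay below it. Hdac1 has as a neighbour, 207.3 kb away, Rbbp4, which encodes a histone chaperone shared by the Polycomb, NuRD and Sin3 complexes, with 11.81 in Snai1 and 11.75 in EV (FDR 0.54). Hdac2 lies in a stretch with few windows, its 20 neighbours reaching 3.02 Mb before and 4.33 Mb after it, with a median change of 0.08.

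Ezh2 was the single gene of the 8 called higher, by a small amount. Its window (chr6:47594930-47596030) had a log2 concentration of 11.57 in Snai1 and 11.36 in EV in the authors' deposited table. The change was 0.21 (implied SE 0.07, FDR 0.0176), which is 1.16-fold higher in Snai1. Less the median change of all windows, 0.08, it came to 0.13 and did not pass (FDR 0.21 when tested again, by which 21.0% of all windows were called, 7.21% higher and 13.8% lower), and less the neighbours' median of 0.13 it came to 0.08 (FDR 0.55). Against windows of like width and accessibility, by which 20.3% of all windows were called, it came to 0.13 and was not called either. Of its 20 neighbours 6 were called higher, among them the immune GTPase genes Gimap9, Gimap6, Gimap1 and Gimap5, and 2 were called lower, Krba1 (-0.86) and the zinc finger gene Zfp467 (-0.70).

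**Figure D4:**
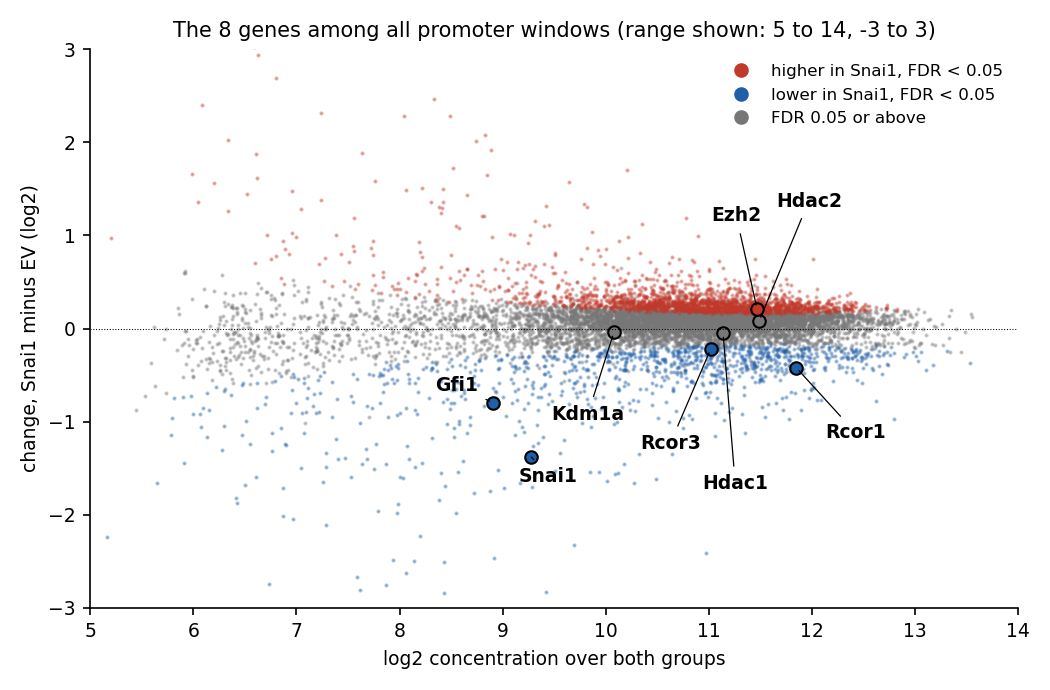
Change between Snai1 and EV (log2, vertical axis) against the log2 concentration over both groups (horizontal axis) for all windows, with the 8 genes marked and colours by call; 44 windows lie outside the range drawn. Snai1 (-1.38) and Gfi1 (-0.80) lie in the sparsely filled lower left, and the other 6 genes lie between -0.42 and 0.21.

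Levels were compared within a window width, since a longer window collects more reads. Among the windows that reach 1000 bp into the gene, Rcor1 was the most open (12.05 in EV), then Hdac2 (11.45), then Snai1 (9.81). Among those that reach 100 bp into the gene, Ezh2 (11.36), Hdac1 (11.16) and Rcor3 (11.13) were close together, followed by Kdm1a (10.10) and Gfi1 (9.26). Hdac1 and Rcor3 differed in EV by less than 1 implied SE of a change, and the order among neighbours in that list carries no test. The windows most like Snai1 in the 2 group values were those of the dynein adaptor gene Bicdl1 (8.48 in Snai1 and 9.85 in EV, a distance of 0.06 log2), the kinase-like gene Rps6kc1 (8.54 in Snai1 and 9.80 in EV, at a window inside the gene) and the schlafen gene Slfn5 (8.59 in Snai1 and 9.82 in EV). Those most like Gfi1 were Cracr2a (8.48 in Snai1 and 9.24 in EV), the kinase gene Pak6 (8.51 in Snai1 and 9.26 in EV) and Gpr132 (8.55 in Snai1 and 9.22 in EV, FDR 0.0684 and not called). The windows of Cracr2a and Gpr132 also lay inside the gene. With 1 value per group this likeness rests on 2 values a window.

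The wider families of these proteins were described from 9 lists of partner genes. Beside the 8 genes, 78 of 100 listed partners had a window. By the FDR of the authors' deposited table, 8 of them were called higher and 8 lower (10.3% each), and their median change was 0.04. Over all 10199 genes with a window, 19.6% were called higher and 10.3% lower, and the median was 0.08. Less the median of each gene's 20 nearest windows, 1 partner was called higher and 6 lower, where 5.35% and 8.39% of all windows were.

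Of 11 repressors with a SNAG peptide or related to the Snail family, 3 had a window: Snai1, Gfi1 and Gfi1b. Gfi1b, the erythroid and megakaryocyte relative of Gfi1, did not pass, with 10.15 in Snai1 and 10.05 in EV (change 0.10, implied SE 0.12, FDR 0.54, from the authors' deposited table). Snai2, Snai3, Scrt1, Scrt2, Insm1, Insm2, Ovol1 and Ovol2 had no window in the table analysed. The list median of -0.80 is the value of Gfi1 itself.

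Of 16 genes of the Lsd1 and CoREST complex, windows were found for 14. Of these, 0 were called higher, 3 lower (21.4%) and 11 not at all by the FDR of the authors' deposited table, and the median was -0.01. All genes with a window had shares of 19.6% higher and 10.3% lower, and a median of 0.08. The third call beside Rcor1 and Rcor3 was Zfp217, which encodes a zinc finger protein that binds the complex, at a window 20457 bp inside the gene, with 11.27 in Snai1 and 11.54 in EV (change -0.27, implied SE 0.10, FDR 0.0286). It was the one gene of the list called lower against its neighbours, whose median was 0.005 (change -0.28 after subtraction). The second flavin demethylase gene Kdm1b had 12.41 in Snai1 and 12.47 in EV (FDR 0.67). The corepressor gene Ctbp1 had 11.20 in Snai1 and 11.18 in EV (change 0.02, FDR 0.86).

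Of the 11 genes of Polycomb repressive complex 2, all had a window. Ezh2 was called higher, Phf19 was called lower (9.09% each) and 9 were not called, with a median of -0.01. The shares for all genes with a window were 19.6% higher and 10.3% lower, with a median of 0.08. Phf19, an accessory subunit that recognises methylated lysine 36 of histone H3, had 8.59 in Snai1 and 9.32 in EV in the authors' deposited table (change -0.73, implied SE 0.12, FDR 1.23e-08). Its change was the lowest among its 20 neighbours, and stayed called against them (-0.82). The other core subunits did not pass: Eed had a change of 0.01, Suz12 one of -0.02, and Ezh1, the other methyltransferase of the family, one of -0.02.

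The other deacetylase complexes differed little. For comparison, 19.6% of all genes with a window were called higher and 10.3% lower. Of 8 NuRD genes with a window, Mta1 was called lower (9.37 in Snai1 and 9.70 in EV, FDR 0.00276), and its change equalled that of its neighbours to within 0.01. Of 10 Sin3 genes, Sap30 was called higher (11.63 in Snai1 and 11.40 in EV, FDR 0.0165) and Suds3 lower (10.31 in Snai1 and 10.61 in EV, FDR 0.00288). Neither was called against its neighbours. Of 8 other deacetylase genes 0 were called by the authors' FDR, and Hdac3 (change -0.10) and Sirt1 (0.08) had the smallest p-values of that list. All 4 genes of the Zeb and Twist list with a window were likewise not called, the nearest being Zeb2 (0.18) and Tcf4 (0.15), both at windows inside the gene.

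Among 14 other cofactors and regulators of Snai1, 1 was called higher (7.14%) and 2 lower (14.3%) by the authors' FDR, beside 19.6% and 10.3% of all genes with a window. Fbxl14, whose product targets Snai1 for degradation, had 11.48 in Snai1 and 11.30 in EV (FDR 0.0422). Gsk3b, the kinase that marks Snai1 for export and degradation, had 13.34 in Snai1 and 13.71 in EV (FDR 0.00649), in a neighbourhood with a median of -0.35. Ctdsp2, a small phosphatase, had 11.38 in Snai1 and 11.67 in EV (change -0.29, FDR 0.0032) and remained called against its neighbours (-0.31). Prmt5, Limd1, Suv39h1, Ehmt2 and Dnmt1 (at a window inside the gene) were not called. The LIM adaptor gene Ajuba was not called either (change -0.15), but was lower against its neighbours (-0.285 after subtraction, FDR 0.047 when tested again).

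The list with the most calls was that of Gfi1 targets and partners in blood. Of its 14 genes with a window 6 were called higher (42.9%) and 2 lower (14.3%), with a median of 0.09. Over all genes with a window, 19.6% were called higher and 10.3% lower, with a median of 0.08. Less the median change of all windows, 2 genes of the list were called higher and 2 lower, where 7.21% and 13.8% of all windows were. Cebpe, a regulator of granulocyte maturation, had 9.95 in Snai1 and 9.45 in EV in the authors' deposited table (change 0.50, implied SE 0.11, FDR 3.39e-05) and lay above all 20 neighbours. The homeobox gene Meis1 (change 0.26) and the early growth response gene Egr2 (0.25, at a window inside the gene) were also higher. Cdkn1a, the cell cycle inhibitor, had 8.72 in Snai1 and 9.76 in EV (change -1.04) with a wide implied SE of 0.30 (FDR 0.00413), and lay below all 20 neighbours. Against their neighbours 1 gene of this list, Cebpe, was called higher and 2, Cdkn1a and Meis2 (at a window inside the gene), lower. In the same test 5.35% of all windows were called higher and 8.39% lower. Earlier results for several genes of this list were known when it was drawn up.

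**Figure D5:**
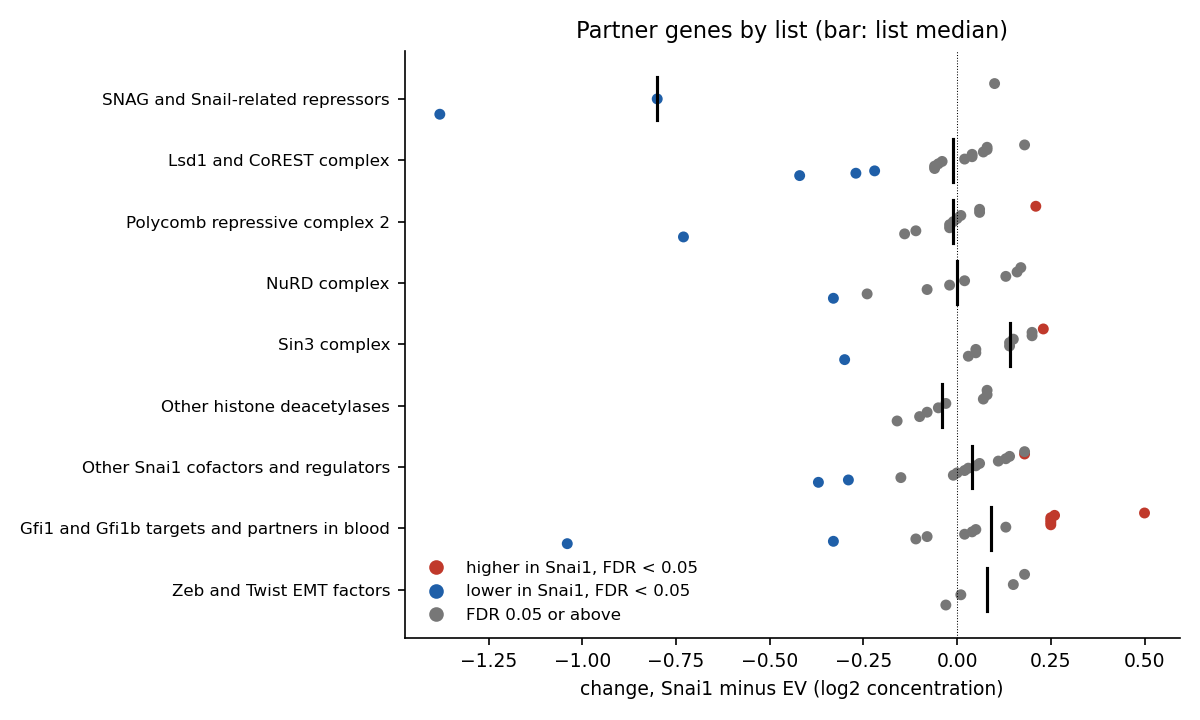
Change between Snai1 and EV (log2 concentration, horizontal axis) for each gene with a window in the 9 partner lists, including the 8 genes, with colours by call and a black bar at each list's median. Snai1 (-1.38), Cdkn1a (-1.04), Gfi1 (-0.80) and Phf19 (-0.73) lie furthest to the left, and Cebpe (0.50) furthest to the right.

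The E-box letters seen in both SNAG repressor promoters were also counted over the table. Of 1125 windows at an annotated start whose RefSeq promoter held CAGGTG on either strand, 13.2% were called lower and 17.2% higher in the authors' deposited table, with a median change of 0.06. Of 6036 windows whose promoter lacked it, 10.0% were called lower and 19.7% higher, with a median of 0.09. A change as low as that of Gfi1 or lower was found at 2.84% of the windows with the letters and at 1.77% of those without. The limit is Gfi1's own value, and Snai1 and Gfi1 are among the 32 windows with the letters that reached it. No conclusion is therefore drawn from this count. These shares were not tested and were computed after the matches at Snai1 and Gfi1 had been seen.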

How the data were processed

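ATAC-seq libraries of HPC7 cells were processed by the authors with fastp, Bowtie2, Picard and DiffBind on mm10, per the submitters' processing notes; for versions, the peak caller, a Tn5 shift, read counting and DiffBind options, the sources used here give nothing. The deposited log2 concentrations are 1 value per group, per the file headers, with 0 columns of single libraries. The deposited p-value and FDR were used as they stand. The deposited log2 fold runs EV minus Snai1; the change here is Snai1 minus EV, equal to it within 0.01 apart from sign.

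Of the rows, 3 exact repeats were dropped. Longer windows were read as plus-strand promoters (1000 bp on either side of the start) and shorter ones as minus-strand promoters (1000 bp before to 100 bp after it). Genes came from RefSeq (GRCm38.p6): a 5' end within 1000 bp on that strand (8955 windows, protein-coding first), otherwise the gene that spans the start (1300), and 16 had none. Strand came from the RefSeq promoter table; genes missing there were matched by boundary alone. The implied SE divides the change by the z value that belongs to its p; changes under 0.1 took the median of 20 accessibility bins. Re-tests divided the centred change by the implied SE, with Benjamini-Hochberg adjustment over all windows; they treat the centre as free of error and were tested on simulated data. Lists used each gene's window of highest concentration. Named were the 8 genes, up to 4 called genes a list by FDR (with none called, the 2 smallest p), the extremes among the neighbours of called genes and the 3 windows most like Snai1 and Gfi1; other genes were named after their values were seen. Members and lists were chosen with earlier results of these data known. Python 3.11.15, pandas 2.3.3, scipy 1.17.1 and matplotlib 3.10.9 were used.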

Additional observations from a re-analysis of the deposited data

How the results depend on the processing

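No paired analysis was possible because the table holds no values per library, and for the same reason no replicate could be left out. Snai1 and Gfi1 kept direction and call under every alternative in which their windows were tested; a minimum log2 concentration of 9 removed the window of Gfi1 and left 4 calls (3 lower, 1 higher). Subtracting the median of the 20, 10 and 40 nearest windows, or of the 20 nearest of the same width, gave Rcor1 -0.01, 0.09, -0.025 and -0.01, Rcor3 0.055, 0.05, 0.055 and 0.075, and Ezh2 0.08, 0.08, 0.11 and 0.13, none called; Ezh2 was not called at 0.13 less the median of all windows, nor at 0.13 against windows of like width and accessibility, nor, like Rcor3 (-0.22), at FDR 0.01 (0.21). Uncalled values changed sign at Kdm1a (0.075, 10 nearest) and Hdac2 (-0.03, 40 nearest; -0.045, same width; -0.025, like accessibility). Of the 8 windows, 5 were called (4 lower, 1 higher), and against neighbours, in all 4 ways, 2 (2 lower, 0 higher). At FDR 0.01, 3 were called (Snai1, Gfi1 and Rcor1, 0 higher). A limit of 100 bp to the annotated start left out Rcor1 (431 bp), Ezh2 (240 bp) and Hdac2 (247 bp). With it 3 were called (Snai1, Gfi1 and Rcor3, 0 higher). The share of all windows called under that limit, or under the minimum log2 concentration of 9, is not given here. Both counts are therefore descriptions only. Less the median of all windows or against like accessibility, 4 were called (4 lower, 0 higher). Among the 78 partners with a window, 16 calls (8 higher) became 9 (3 higher) at FDR 0.01. They became 7 (1 higher) against the 20 nearest, and 11 (2 higher, 9 lower) less the median of all windows. Over all windows, 29.9% were called as deposited, 19.0% at FDR 0.01, 13.7% against the 20 nearest and 21.0% less the median of all windows. The cause was not tested. Library depth is unknown; the implied SE was larger in windows of low accessibility (median 0.11 around Snai1's level, 0.08 overall).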
